A study of Homo sapiens with 12 samples.

Results

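Passenger strands are the microRNAs that older names mark with an asterisk, such as miR-21*, the strand of a hairpin opposite to miR-21. They were chosen by name alone: every human name on the array that ends in an asterisk, apart from 8 of the 171 that are not analysed here. This gave 163 passenger strands among 851 human names. For 136 of them the array also holds the guide strand under the same name without the asterisk. The cells were SUM159, a human triple-negative breast cancer line of mesenchymal character, infected stably with a pLKO.1 lentiviral vector. Its insert was an shRNA against Dicer or, in the controls, a scrambled shRNA, so no group was free of vector and shRNA. Cells of both lines received vehicle (PBS) or 0.5 mM metformin, a biguanide that inhibits respiratory complex I, for 24 h. The 12 one-colour arrays form 4 groups of 3 replicates, which the labels call biological without saying what was kept separate: control shRNA with vehicle, Dicer shRNA with vehicle, control shRNA with metformin, and Dicer shRNA with metformin.

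A microRNA hairpin is cut from its primary transcript by Drosha and then trimmed by Dicer to a short duplex. The strand that Argonaute keeps is the guide, and the other, the passenger, is usually degraded. Which strand is kept depends on the stability of the duplex ends and on the first base, and for some hairpins both strands are loaded. Since both strands leave the same Dicer product, less Dicer activity is known to lower the supply of both.

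The mature sequences of the passenger strands that the results turn on are printed with the seed, bases 2 to 8, in capitals, because strands that share a seed share most target sites. RefSeq held 19 of the 21 passenger strands that could be tested and 18 of their 21 guide strands (build GRCh38.p14). The let-7 passenger strands come first, since let-7b* and let-7f-1* share the seed UAUACAA and let-7d* differs from it at one base, whereas their guides carry the let-7 seed.
let-7b*: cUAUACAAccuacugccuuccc
let-7b: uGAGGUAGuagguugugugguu
let-7f-1*: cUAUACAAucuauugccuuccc
let-7d*: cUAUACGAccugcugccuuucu
miR-23a*: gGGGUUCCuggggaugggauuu
miR-23a: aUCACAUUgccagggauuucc
miR-17*: aCUGCAGUgaaggcacuuguag
miR-17: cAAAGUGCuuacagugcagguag
miR-106b*: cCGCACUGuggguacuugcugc
miR-106b: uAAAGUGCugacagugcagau
miR-18b*: uGCCCUAAaugccccuucuggc
miR-425*: aUCGGGAAugucguguccgccc
miR-191*: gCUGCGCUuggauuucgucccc
miR-135a*: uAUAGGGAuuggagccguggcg
miR-135a: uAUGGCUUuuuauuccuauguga
miR-10b*: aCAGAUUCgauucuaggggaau
miR-625*: gACUAUAGaacuuucccccuca

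All of these lie in non-coding hairpins. The let-7b* strand maps to chr22:46113745-46113766 and its guide to chr22:46113691-46113712, both on the plus strand. The let-7f-1* and let-7d* strands lie close together on the plus strand, at chr9:94176409-94176430 and chr9:94178895-94178916. The miR-23a* strand is at chr19:13836630-13836651 on the minus strand. It is the only one of the 21 from the 5′ arm, and the other 20 are 3′ strands. The miR-17* strand maps to chr13:91350655-91350676 on the plus strand, miR-106b* to chr7:100094002-100094023 on the minus strand and miR-18b* to chrX:134170042-134170063 on the minus strand. The miR-425* and miR-191* strands are neighbours on the minus strand, at chr3:49020159-49020180 and chr3:49020631-49020652. The miR-135a* strand is on the same chromosome and strand, at chr3:52294232-52294253. The miR-10b* strand maps to chr2:176150368-176150389 and miR-625* to chr14:65471153-65471174, both on the plus strand. Among the 19 matched passenger strands, 6 start with A, 6 with C, 4 with G and 3 with U, whereas 9 of the 18 matched guides start with U. The median GC content was 54.5% in passenger strands (27.3% to 77.3%) and 46.5% in guides (30.4% to 72.7%), and the passenger was the more GC-rich strand in 13 of the 17 hairpins with both sequences.

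The arrays detected 130 to 204 human names each. Slide 1 carried every vehicle array and slide 2 every metformin array, and therefore treatment and slide cannot be told apart. Positions 1 to 3 of either slide held the control shRNA arrays and positions 4 to 6 the Dicer shRNA arrays, so line and position cannot be told apart. For the metformin groups the titles were followed, since the sample source names contradict them. No probe measured the Dicer transcript, so the knockdown could not be checked. Of the marker microRNAs, miR-205 was detected on all 12 arrays while the other 5 epithelial ones (the miR-200 family and miR-141) were detected on none. With vehicle miR-205 read 620 to 645 in control and 123 to 129 in Dicer shRNA cells, and with metformin 106 to 134 and 76.8 to 105. In control shRNA cells with vehicle its mean of 631 lay below that of miR-21 (961). It lay above those of miR-221 (159), miR-222 (260), miR-100 (283) and miR-125b (272), which with miR-21 are the mesenchymal or basal markers. The 5 mesenchymal or basal markers were all detected, with summed signals of 1830 to 2060 in control shRNA cells with vehicle, 568 to 695 in Dicer shRNA cells with vehicle, 43.8 to 81.7 in control shRNA cells with metformin and 259 to 371 in Dicer shRNA cells with metformin. Markers of other tissues moved with metformin in control shRNA cells, where many dim passenger strands were brightest. The 4 muscle markers summed to 0 to 4.41 with vehicle and 24.9 to 29.9 with metformin in these cells, and to 0 to 6.52 and 7.74 to 21.1 in Dicer shRNA cells, with miR-1 and miR-206 detected on no array. Of the 5 blood cell markers only miR-223 was detected, in control shRNA cells with metformin, at 4.29 to 9.63. Liver and neuron markers were detected on none. Replicates correlated at Pearson's r of 0.961 to 0.993 across names, and replicate 1 of the Dicer shRNA cells with vehicle stood farthest from its group. Viral probes detected on all 12 arrays also moved between groups: their 10 names had a median log2 difference of 0.87 for knockdown with vehicle, -0.49 for knockdown with metformin, 1.38 for metformin in control shRNA cells and 0.34 for metformin in Dicer shRNA cells. The 4 control features named hur moved against the viral names and with the sign of most called guides, with medians of -0.81, 1.95 and -3.84 in the first 3 of these comparisons and values of -1.38 to -0.30 in the last, all 4 on one side of 0 each time. The part of these features and markers in the results was not tested.

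Few passenger strands were detected, and their number did not follow that of the guides. The scanner software flagged 37 of the 163 (22.7%) as detected on at least 1 array, against 62 of the 136 guides (45.6%) and 224 of the 680 human names without an asterisk, guides included (32.9%). Only 8 were detected on all 12 arrays: let-7b*, let-7f-1*, miR-135a*, miR-150*, miR-191*, miR-1914*, miR-21* and miR-877*. Among the 136 hairpins with both names, 19 had both strands detected somewhere, 12 only the passenger, 43 only the guide and 62 neither. Control shRNA cells with vehicle had 17.7 ± 5.03 passenger strands and 52 ± 4.36 guides detected per array (SD, n = 3). Dicer shRNA cells with vehicle had 15.3 ± 2.89 and 33.7 ± 4.73. With metformin, control shRNA cells had 20.3 ± 2.52 passenger strands and 23.3 ± 1.15 guides, and Dicer shRNA cells 15 ± 2 and 26 ± 2.65. The counts of passenger strands overlapped between control and Dicer shRNA cells with vehicle, while those of guides did not. The summed scaled signal of the passenger strands was 344 ± 40.4 in control shRNA cells with vehicle, 499 ± 71.6 with the Dicer shRNA, 943 ± 36.5 with metformin and 620 ± 54.3 with both. For the guides these sums were 5690 ± 383, 2240 ± 109, 1320 ± 157 and 1590 ± 72.5. Control shRNA cells with vehicle thus had the lowest passenger sums and the highest guide sums, and in neither list did any array of that group overlap an array of another. The sums were taken with a single scaling, and the order of the passenger sums may depend on it. Scaling to the viral names turned the median change of the tested passenger strands with metformin in control shRNA cells from 0.98 to -0.46. Much of the passenger sum came from miR-135a* and miR-21*, with means of 440 and 178 in control shRNA cells with metformin. In these bulk samples, fewer cells that hold a microRNA and less of it per cell cannot be told apart.

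**Figure D1:**
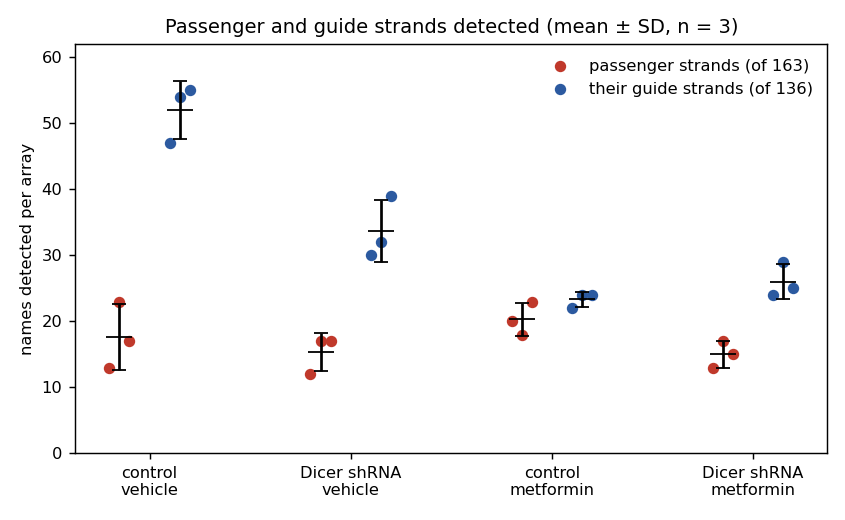
Number of passenger strands (red, of 163) and guide strands (blue, of 136) detected on each array, by group; points are arrays and black bars the mean ± SD of 3. The guide counts fall from 52 in control shRNA cells with vehicle to 23.3 in the same cells with metformin, while the passenger counts stay between 12 and 23.

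Changes were tested for the 21 passenger strands that some group showed on each of its 3 arrays, within a fit over 208 human names. A strand passed this filter if it was high in only 1 group, so these 21 do not stand for all 163. Signals were scaled to the 75th percentile of the 98 names detected on every array, and values under a scaled signal of 3.01 were set to that floor (1.59 on the log2 scale). A change given below as at least some value is against this floor and holds for this scaling only. A group at the floor on all its arrays has no spread, and this enters the estimate shared by all groups. Standard errors and p-values are therefore likely too small for such strands, among them miR-10b*, miR-129*, miR-149*, miR-30c-1* and miR-425*. The same holds for pairs with both strands at the floor in a group. A change was called at a Benjamini-Hochberg adjusted p under 0.05 in limma. With vehicle, the Dicer shRNA was accompanied by calls for 4 of the 21 passenger strands, 2 higher and 2 lower, beside 59.6% of all 208 names (21.6% higher, 38% lower). For the guides it was 41 of 52, 2 higher and 39 lower. Only 9 of these 52 guides belong to a tested passenger strand, so here and below the lists cover mostly different hairpins. The 2 lower passenger strands, miR-17* and miR-181a-2*, passed the filter only through the control shRNA cells with vehicle. So did some guides, among them miR-106b, miR-130a, miR-15a, miR-17, miR-18b, miR-29c and miR-425. The filter thus favoured lower values of these strands here and with metformin in control shRNA cells. Among the 15 guides detected on all 12 arrays, 2 were called higher and 10 lower. The median log2 difference was 0.22 for passenger strands, -1.31 for guides and 0.00 for all names. Scaling to the viral names turned the split of passenger strands to 1 higher and 6 lower, and quantile normalization to 6 higher and 1 lower.

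With metformin, 8 of the 21 passenger strands were lower in Dicer than in control shRNA cells and 0 higher, beside 38.9% of all names called (25% lower, 13.9% higher). Of the 52 guides, 14 were higher and 6 lower. The medians were -0.59 for passenger strands, 0.00 for guides and -0.24 for all names. Scaling to the viral names left 1 higher and 3 lower. The lower strands miR-10b*, miR-129*, miR-149*, miR-425* and miR-30c-1* passed the filter only through the control shRNA cells with metformin. The filter thus favoured their direction in this comparison. Among the 8 passenger strands detected on all 12 arrays, 1 was called, lower.

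Metformin in control shRNA cells came with the most calls, as in the whole table, where 88% of names were called (47.6% higher, 40.4% lower). Of the 21 passenger strands 14 were higher and 2 lower, whereas of the 52 guides 8 were higher and 41 lower. The medians were 0.98 for passenger strands, -2.19 for guides and 0.52 for all names. This split depended on the scaling: after scaling to the viral names 6 passenger strands were higher and 10 lower, with medians of -0.46 for passenger strands and -1.16 for all names. The filter favoured the higher direction for miR-10b*, miR-129*, miR-149*, miR-425* and miR-30c-1*, which passed only through these cells with metformin. It favoured the lower direction for the 2 lower strands, miR-17* and miR-181a-2*, which passed only through these cells with vehicle. Among the 8 passenger strands detected on all 12 arrays, 7 were called higher and 0 lower. Of the 15 guides detected on all 12 arrays 4 were called higher and 11 lower.

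In Dicer shRNA cells metformin came with few calls. Only 2 of the 21 passenger strands, miR-191* and miR-625*, were called, both higher, beside 24.5% of all names (6.25% higher, 18.3% lower). Of the guides 1 was higher and 18 lower. The medians were 0.01 for passenger strands, -0.20 for guides and 0.00 for all names. The passenger count was 0 after scaling to the viral names and 6, all higher, after quantile normalization. It also depended on single arrays. Without replicate 1 of the Dicer shRNA cells with vehicle it was 4, while without replicate 2 of that group, replicate 2 of the control shRNA cells with vehicle, replicate 1 or 3 of the control shRNA cells with metformin, or replicate 1 or 3 of the Dicer shRNA cells with metformin it was 0. It was 1 without replicate 3 of the Dicer shRNA cells with vehicle or replicate 2 of either metformin group.

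**Figure D2:**
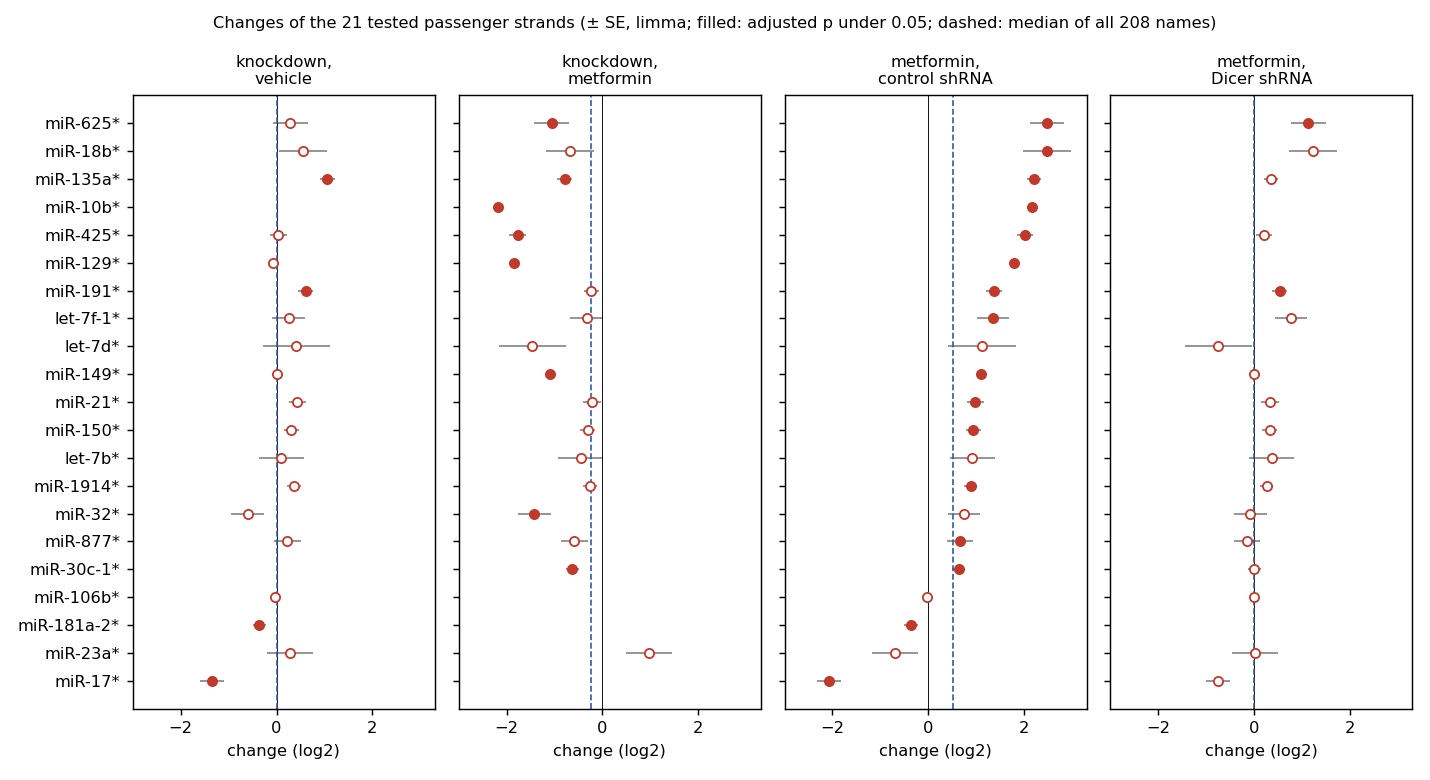
Log2 change of each tested passenger strand in 4 comparisons (points ± SE from limma; filled where the adjusted p was under 0.05; no point where neither group detected the strand). The dashed line is the median of all 208 names. The strands miR-10b*, miR-129*, miR-149*, miR-425* and miR-30c-1* passed the filter only through the control shRNA cells with metformin. The strands miR-17*, miR-181a-2* and miR-106b* passed only through the control shRNA cells with vehicle. With metformin in control shRNA cells 14 strands are called to the right of 0 and 2 to the left, a split that becomes 6 and 10 after scaling to the viral names, and with the Dicer shRNA under metformin 8 are called to the left (1 to the right and 3 to the left after that scaling).

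The within-array difference between the strands, passenger minus guide on the log2 scale, removes the scaling of an array except where a strand is at the floor. It was tested for 9 hairpins with both strands in the fit, among 17 such pairs in all (the other 8 carry -3p and -5p names). A probe's level cannot be set against that of another probe, so only the movement of the difference between groups is reported. With vehicle, the Dicer shRNA shifted the difference towards the passenger in 6 of the 9 hairpins, beside 52.9% of the 17 pairs called in either direction. The 6 hairpins were miR-106b, miR-21, miR-425, miR-23a, miR-17 and let-7b. The passenger strands of miR-106b and miR-425 rose above the floor on only 1 of these 6 arrays each, so only the change of their guides was measured. Metformin in control shRNA cells shifted it towards the passenger in 7 of 9 (76.5% of the 17), the same 6 and miR-18b. The guides miR-106b, miR-17, miR-425 and miR-18b passed the filter only through the control shRNA cells with vehicle. The filter thus favoured a fall of these guides in both comparisons. For miR-17 and miR-106b both strands were at the floor on the metformin arrays of these cells, so their called shift is only the gap between the probes with vehicle. This leaves 5 hairpins, let-7b, miR-21, miR-425, miR-23a and miR-18b, in which the strands were seen to move apart. For miR-18b this rests on the passenger, since its guide was near the floor with vehicle and at it with metformin. Metformin in Dicer shRNA cells did so in 4 of 9 (41.2% of the 17), namely let-7b, miR-21, miR-106b and miR-425. Of these only the miR-21 call held in every alternative run. The let-7b call was lost without replicate 2 or 3 of the Dicer shRNA cells with vehicle or replicate 3 of those with metformin (adjusted p up to 0.15). The miR-106b call, with its passenger at the floor on all of these arrays, was lost without replicate 2 or 3 of the Dicer shRNA cells with vehicle or any 1 of those with metformin (up to 0.15), and the miR-425 call in 9 of the 12 fits without 1 array (up to 0.16). Under metformin the Dicer shRNA shifted it towards the guide in 3 of 9 (23.5% of the 17), let-7b, miR-21 and miR-425, the last with its guide at the floor in both groups. For the other 8 pairs the difference is -3p minus -5p. With the Dicer shRNA and vehicle 2 moved towards the -3p strand and 1 towards the -5p strand. Metformin in control shRNA cells gave 3 and 3, with values from -1.98 for miR-423 to 4.90 for miR-125a. In Dicer shRNA cells metformin gave 2 and 1, and the Dicer shRNA under metformin gave 1 and 0. These names do not mark a passenger, so the counts cannot be set against those of the 9 hairpins. The vehicle arrays of the control shRNA cells enter the first and second of these comparisons, which are therefore not independent.

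**Figure D3:**
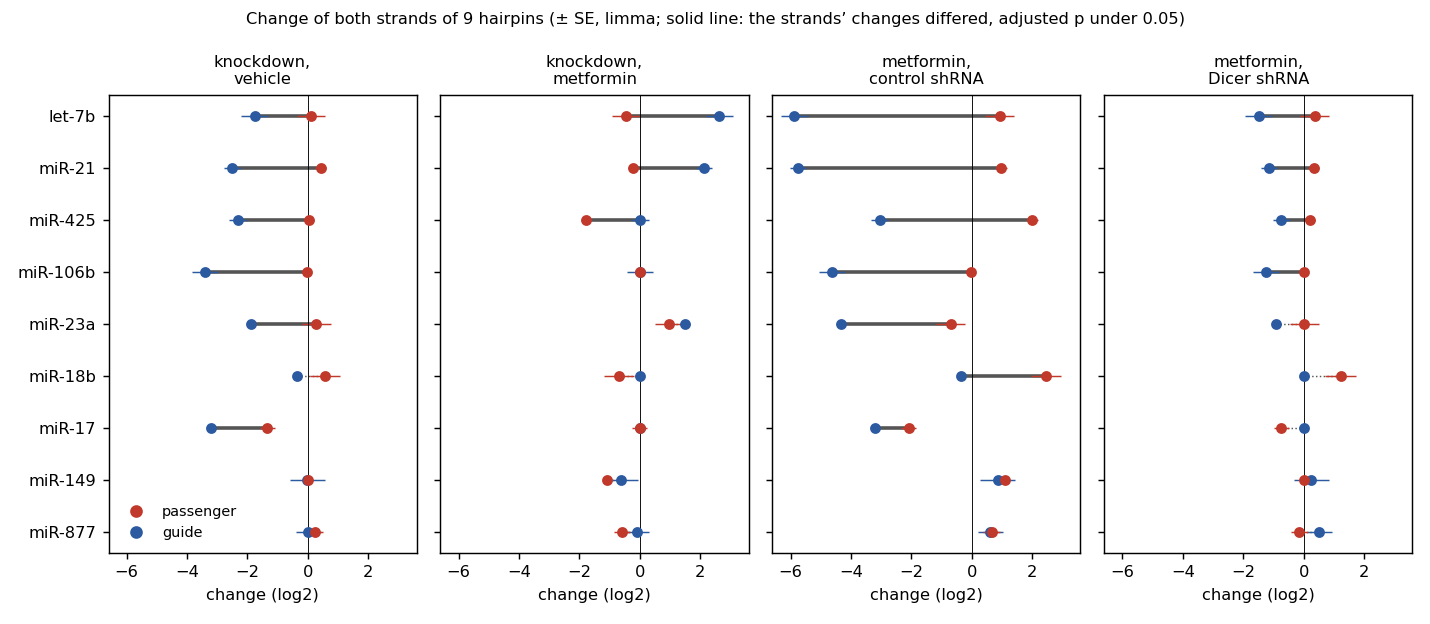
Log2 change of the passenger (red) and guide (blue) strand of 9 hairpins in 4 comparisons (points ± SE from limma, n = 3 a group); solid lines join strands whose changes differed at an adjusted p under 0.05. In the first and the third comparison the guide lies far to the left of the passenger in most rows, whereas miR-149 and miR-877 show no called difference anywhere. The guides miR-106b, miR-17, miR-425 and miR-18b passed the filter only through the control shRNA cells with vehicle.

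The miR-21 hairpin was the only one with both strands detected on all 12 arrays. Its guide is an abundant microRNA in many tumours. Scaled signals of miR-21* were 102, 100 and 71.4 in control shRNA cells with vehicle, 139, 133 and 95.5 in Dicer shRNA cells with vehicle, 185, 184 and 163 in control shRNA cells with metformin, and 164, 163 and 132 in Dicer shRNA cells with metformin. The metformin arrays were thus all above the vehicle arrays in control shRNA cells, while control and Dicer shRNA cells overlapped with either treatment. The guide miR-21 stood at 954, 869 and 1060, then 140, 177 and 195, then 14.1, 27.2 and 14.4, and 72.3, 101 and 61.6 in the same order of groups. All 4 groups of the guide were apart. With metformin in control shRNA cells miR-21* was 0.98 ± 0.18 higher on the log2 scale (SE; limma adjusted p = 0.00051), but -0.85 after scaling to the viral names, while miR-21 fell by 5.76 ± 0.27. Their difference moved by 6.74 ± 0.35 (adjusted p = 1.1e-09), and lay between 5.70 and 8.22, always called, under the alternatives run. With the Dicer shRNA and vehicle it moved by 2.92 ± 0.35 (adjusted p = 2.5e-05), where miR-21* itself differed by 0.43 ± 0.18 and was not called (adjusted p = 0.069). Under metformin the Dicer shRNA moved it back by -2.33 ± 0.35 (adjusted p = 0.00028).

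**Figure D4:**
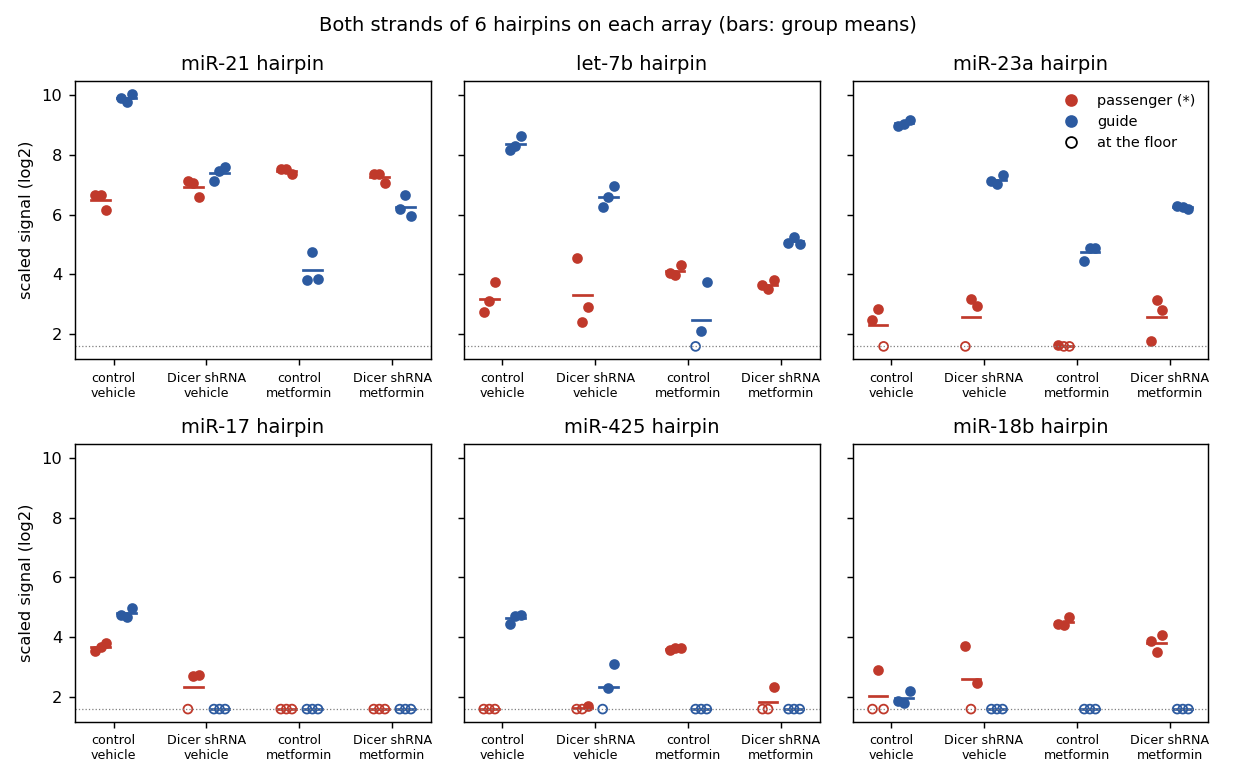
Scaled signal (log2 axis) of the passenger (red) and guide (blue) strand of 6 hairpins on each array, with group means as bars and open points at the floor of 1.59. The miR-21* points stay between 6.16 and 7.53 while those of miR-21 run from 10.1 down to 3.82, and the miR-17 strands are both at the floor on all metformin arrays.

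The let-7 family, whose guides repress RAS, MYC and HMGA2, gave 3 tested passenger strands. On the control shRNA arrays with vehicle let-7b* read 6.63, 8.61 and 13.3, and on the Dicer shRNA arrays 23.6, 5.3 and 7.55, with replicate 1 of the latter far above the rest. With metformin it read 16.5, 15.7 and 19.8 in control and 12.5, 11.3 and 14.1 in Dicer shRNA cells, which did not overlap. It was called in no comparison, its largest difference being 0.92 ± 0.47 with metformin in control shRNA cells (adjusted p = 0.086). Its guide let-7b fell from 287, 313 and 394 to 77.2, 95.8 and 123 with the Dicer shRNA. In control shRNA cells with metformin let-7b was not detected on replicate 1 and read 4.34 and 13.4 on the others, and in Dicer shRNA cells with metformin it read 33.1, 38.5 and 32.6. The difference of the let-7b strands moved by 6.79 ± 0.59 with metformin in control shRNA cells (adjusted p = 1.6e-07) and by -3.08 ± 0.59 with the Dicer shRNA under metformin (adjusted p = 0.001). With the Dicer shRNA and vehicle it moved by 1.86 ± 0.59 (adjusted p = 0.015), a call lost without replicate 1 of either group (down to 1.07 and an adjusted p up to 0.078).

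The other let-7 passenger strands were dim. The let-7f-1* strand read 2.2, 7.78 and 7.33, then 8.06, 4.75 and 7.58, then 14, 13.7 and 14.8, and 9.18, 12.6 and 12.4 in the order control and Dicer shRNA with vehicle, control and Dicer shRNA with metformin. Its metformin arrays were all above its vehicle arrays in either line, and it was 1.35 ± 0.34 higher with metformin in control shRNA cells (adjusted p = 0.0036), though -0.33 after scaling to the viral names. The guide let-7f, which 2 hairpins make, was detected on the 3 control shRNA arrays with vehicle at 18.8, 22.9 and 40.6 and elsewhere only on 1 Dicer shRNA array, at 3.2. The let-7d* strand was detected on 10 arrays, with 2.19 to 22.9, and was called in no comparison. Its highest value came from replicate 1 of the Dicer shRNA cells with vehicle, and its guide was detected on 1 array.

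The miR-23a hairpin, part of a cluster with miR-24 and miR-27a, kept a dim passenger beside a guide that moved. The miR-23a* strand read 5.57, 7.1 and 2.9 in control shRNA cells with vehicle and was not detected, 9.06 and 7.75 with the Dicer shRNA. With metformin it read 3.09, not detected and 2.3 in control and 3.43, 8.9 and 7.06 in Dicer shRNA cells. No change of miR-23a* was called, and its replicates spread as widely as its groups. Its guide read 498, 522 and 575, then 141, 131 and 162, then 21.8, 29.2 and 29.8, and 78.5, 76.8 and 73. The difference of the strands moved by 2.16 ± 0.49 with the Dicer shRNA and vehicle (adjusted p = 0.0021) and by 3.62 ± 0.49 with metformin in control shRNA cells (adjusted p = 1.3e-05). In these comparisons miR-23a fell by 1.88 ± 0.14 and by 4.32 ± 0.14.

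The miR-17, miR-106b and miR-18b hairpins belong to the 3 paralogous miR-17-92 clusters, which promote proliferation. The miR-17* strand was a passenger that fell with its guide. It read 11.7, 12.8 and 13.9 in control shRNA cells with vehicle, was not detected, 6.46 and 6.63 with the Dicer shRNA, and was detected on no metformin array. It was lower with the Dicer shRNA and vehicle by -1.34 ± 0.25 (adjusted p = 0.00098) and with metformin in control shRNA cells by at least 4.24-fold against the floor (adjusted p = 1.9e-05). Its guide miR-17 read 26.7, 25.3 and 31.5 in control shRNA cells with vehicle and was detected on none of the other 9 arrays. With the Dicer shRNA and vehicle the strand difference moved by 1.87 ± 0.30 (adjusted p = 0.00011), with the guide at the floor and the passenger above it on 2 of 3 arrays. With metformin both strands were at the floor, so which of them fell more could not be measured.

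The miR-106b* strand lay near the floor throughout, with 2.12, 3.18 and 2.87 in control shRNA cells with vehicle, 2 on 1 Dicer shRNA array and no detection with metformin, so its own change could not be seen. The movement of its pair, 3.36 ± 0.43 with the Dicer shRNA and vehicle (adjusted p = 2.5e-05), was that of its guide, which went from 73, 70.8 and 82.6 to not detected, 8.44 and 14.6. The miR-18b* strand moved in the opposite direction to miR-17*. It was detected on 1 control shRNA array with vehicle at 7.49, on the Dicer shRNA arrays at 13.1, 2.2 and 5.56, and with metformin on all arrays, at 21.5, 21 and 25.5 in control and 14.5, 11.4 and 16.8 in Dicer shRNA cells. It was 2.47 ± 0.50 higher with metformin in control shRNA cells (adjusted p = 0.00087; 1.08 and not called after scaling to the viral names). Its guide was detected only in control shRNA cells with vehicle, at 3.64, 3.47 and 4.63. The strands of miR-18b therefore moved apart by 2.84 ± 0.51 (adjusted p = 0.00017). Nearly all of this was the change of the passenger, since the guide changed by -0.37, down to the floor, and the scaling does not cancel there.

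The neighbours miR-425 and miR-191 are processed from one transcript. The miR-425* strand was detected on no control shRNA array with vehicle, on 1 Dicer shRNA array at 3.26, at 11.8, 12.3 and 12.4 in control shRNA cells with metformin and on 1 array at 5.02 in Dicer shRNA cells with metformin. Its guide had the reverse pattern, with 21.6, 26.3 and 27 in control shRNA cells with vehicle, not detected, 4.88 and 8.58 with the Dicer shRNA and no detection with metformin. With metformin in control shRNA cells miR-425* was at least 4.04-fold higher against the floor (adjusted p = 1.4e-06) and the strands moved apart by at least 5.06 on the log2 scale, since the passenger with vehicle and the guide with metformin were both at the floor (adjusted p = 9.5e-09). Under metformin miR-425* was lower with the Dicer shRNA by -1.77 ± 0.17 (adjusted p = 2e-05). The miR-191* strand read 7.94, 9.39 and 9.89, then 17.6, 12.9 and 11.7, then 23.8, 21.6 and 25, and 18.4, 19 and 23. It was 0.61 ± 0.16 higher with the Dicer shRNA and vehicle (adjusted p = 0.0074), though -0.11 after scaling to the viral names, and 1.37 ± 0.16 higher with metformin in control shRNA cells (adjusted p = 1.7e-05), though -0.46 after that scaling. With metformin in Dicer shRNA cells it was 0.53 ± 0.16 higher (adjusted p = 0.038), a call kept in only 4 of the 12 fits that left out 1 array. Its guide was detected on no array.

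The miR-149 and miR-877 hairpins gave no called strand difference, but the floor limited both. The miR-149* strand rose above it only in control shRNA cells with metformin, and the guide miR-877 on no control shRNA array with vehicle. The miR-877* strand, the 3′ end of a short intron that bypasses Drosha, read 8.81, 7.64 and 9.61, then 17.1, 8.3 and 7.18, then 15.3, 11.7 and 14.1, and 8.46, 8.75 and 10.1. It was 0.66 ± 0.28 higher with metformin in control shRNA cells (adjusted p = 0.045), a call kept in 4 of the 12 fits without 1 array and turned to -1.17 by scaling to the viral names. Its guide was detected on 6 arrays, at 9.1 or less, and the pair difference moved by 0.03 ± 0.43 (adjusted p = 0.94). The miR-149* strand was detected in control shRNA cells with metformin at 6.17, 6.41 and 6.82, and otherwise on 1 Dicer shRNA array with vehicle at 2.3 and 1 with metformin at 2.69. It was at least 2.15-fold higher with metformin in control shRNA cells against the floor (adjusted p = 1.5e-07) and -1.10 ± 0.07 lower with the Dicer shRNA under metformin (adjusted p = 8.2e-07; -0.20 and not called after scaling to the viral names). Under the alternatives run the rise of miR-149* with metformin went down to 0.20 on the log2 scale, still called. Its guide read 5.09, 7.97 and 11.7, then 18.7, not detected and 8.13, then 13.2, 13.3 and 16.4, and 5.93, 10.2 and 12.8, and the pair difference moved by 0.24 ± 0.54 with metformin in control shRNA cells (adjusted p = 0.75). Its standard error was like that of pairs that were called, such as let-7b (0.59).

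A further set of passenger strands was measured without any signal from the guide. For 7 of the 21, the guide was detected on no array: miR-135a*, miR-150*, miR-1914*, miR-191*, miR-10b*, miR-625* and miR-32*. The guide of miR-135a* is known as a regulator of APC. The passenger read 108, 103 and 79.1 in control shRNA cells with vehicle, 213, 212 and 176 with the Dicer shRNA, 454, 429 and 437 with metformin and 234, 239 and 297 with both. Control shRNA cells with vehicle were lowest and control shRNA cells with metformin highest, with both Dicer shRNA groups between them. It was higher with the Dicer shRNA and vehicle by 1.06 ± 0.15 (adjusted p = 0.00013) and with metformin in control shRNA cells by 2.20 ± 0.15 (adjusted p = 1.8e-07). The size of both depended on the processing, since under the alternatives run they went down to 0.33 and 0.37, still called. Under metformin it was lower with the Dicer shRNA by -0.79 ± 0.15 (adjusted p = 0.0014), which shrank to -0.17 and was not called after scaling to the viral names. In Dicer shRNA cells the metformin arrays lay above the vehicle arrays, and the difference of 0.35 ± 0.15 was not called (adjusted p = 0.099).

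Smaller changes of the same kind were seen for miR-150* and miR-1914*. The miR-150* strand, whose guide is a lymphocyte microRNA, read 48.6, 42.7 and 35.7, then 56.5, 54 and 46.6, then 78.1, 76.4 and 88.3, and 58.4, 58.1 and 82. The miR-1914* strand read 33.1, 30.1 and 28.8, then 44.1, 41.7 and 33, then 62.8, 49.1 and 57.9, and 43.1, 44.9 and 54. With metformin in control shRNA cells they were 0.94 ± 0.16 (adjusted p = 0.00028) and 0.88 ± 0.14 (adjusted p = 0.0002) higher, and -0.89 and -0.95, called lower, after scaling to the viral names. Their knockdown differences, 0.31 ± 0.16 and 0.36 ± 0.14 with vehicle, were not called.

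**Figure D5:**
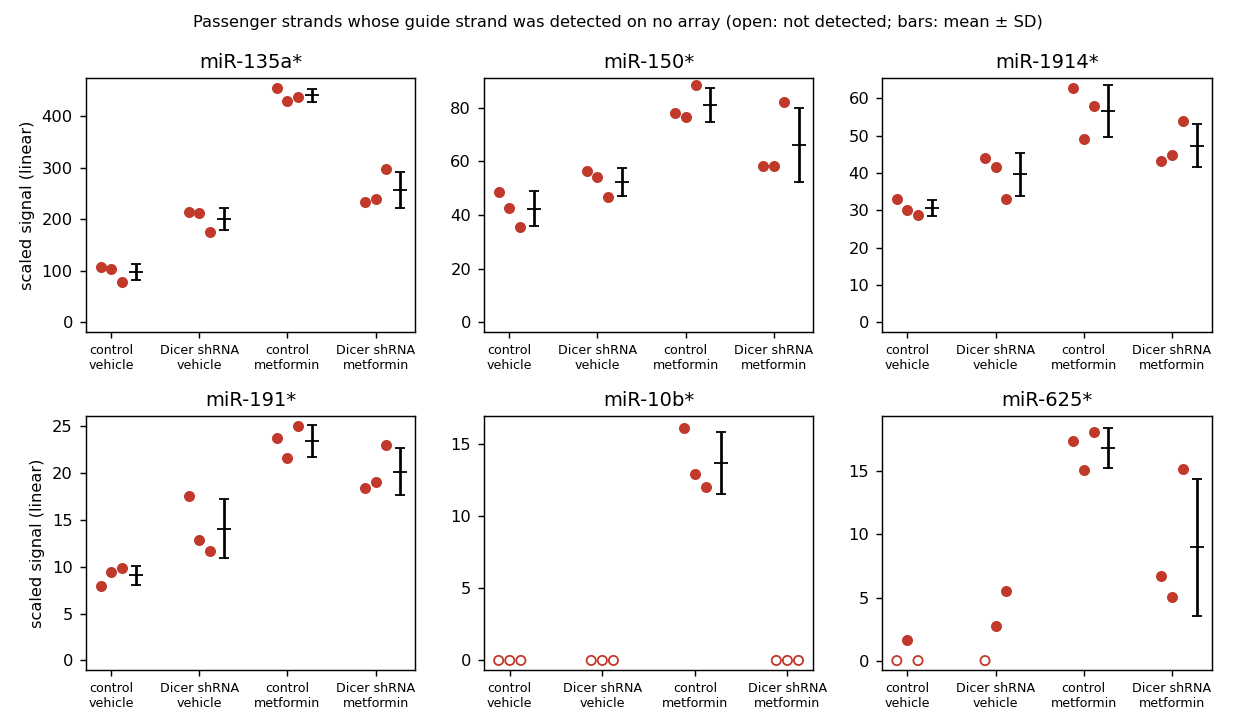
Scaled signal (linear axis) of 6 passenger strands whose guide was detected on no array; open points at 0 were not detected and bars give the mean ± SD of groups detected on all 3 arrays. The control shRNA cells with metformin hold the highest group mean in each panel, from 13.7 for miR-10b* to 440 for miR-135a* (after scaling to the viral names, the means of miR-150*, miR-1914* and miR-191* were lower with metformin than with vehicle in these cells).

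The other 3 of these strands were dim and detected on 3 to 9 arrays. The miR-10b* strand, from a hairpin within the HOXD cluster, was detected only in control shRNA cells with metformin, at 16.1, 12.9 and 12. This was at least 4.51-fold above the floor in the same cells with vehicle (adjusted p = 1.7e-08) and in Dicer shRNA cells with metformin (adjusted p = 1.5e-07). The miR-625* strand was detected on 1 control shRNA array with vehicle at 1.65 and on the Dicer shRNA arrays as not detected, 2.74 and 5.5. With metformin it rose to 17.4, 15.1 and 18.1 in control shRNA cells, by 2.48 ± 0.36 (adjusted p = 8.9e-05), and read 6.71, 5.08 and 15.2 in Dicer shRNA cells. Its lower value with the Dicer shRNA under metformin, -1.06 ± 0.36 (adjusted p = 0.042), was called in 3 of the 12 fits without 1 array. Its rise with metformin in Dicer shRNA cells, 1.13 ± 0.36 (adjusted p = 0.049), was called in 2 of the 12. The miR-32* strand read 5.28, 7.01 and 2.94, then not detected, 2.28 and 3.54, then 10.5, 4.75 and 10.4, and was not detected in Dicer shRNA cells with metformin, at least 2.67-fold below control shRNA cells (adjusted p = 0.0076; not called after scaling to the viral names).

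The last 3 tested strands carry a copy number or lack a guide of the same name. The miR-129* strand was detected on 1 control shRNA array with vehicle at 3.5 and in control shRNA cells with metformin at 11.1, 10.2 and 11.2. It was 1.78 ± 0.09 higher with metformin in control shRNA cells (adjusted p = 1.7e-08) and at least 3.61-fold lower with the Dicer shRNA under metformin (adjusted p = 1.5e-07). The miR-30c-1* strand read 6.04, 3.83 and 4.33 in control shRNA cells with metformin and, on 2 Dicer shRNA arrays with metformin, 2.47 and 2.81. It was at least 1.54-fold higher with metformin against the floor (adjusted p = 0.0017) and 0.04, not called, after scaling to the viral names. Its guide miR-30c was detected only in control shRNA cells with vehicle, at 5.28, 5.29 and 8.1, a group in which the passenger was not detected. The miR-181a-2* strand was the reverse, detected only in control shRNA cells with vehicle, at 4.64, 4.11 and 2.48. Its lower values with the Dicer shRNA (-0.36 ± 0.14, adjusted p = 0.043) and with metformin (-0.36 ± 0.14, adjusted p = 0.03) were close to the threshold, and the first was called in only 1 of the 12 fits without 1 array. The second was lost without replicate 1 or 2 of the control shRNA cells with vehicle and without any 1 of the control shRNA arrays with metformin.

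The knockdown change of a passenger strand often differed between vehicle and metformin. This was tested as an interaction, the knockdown change with metformin minus that with vehicle. It was called for 12 of the 21 passenger strands, 1 higher and 11 lower, beside 76.4% of all names (37% higher, 39.4% lower). Of the 52 guides 40 were higher and 7 lower. The medians were -0.81 for passenger strands, 2.11 for guides and -0.53 for all names. After scaling to the viral names 5 passenger strands were higher and 3 lower. The 11 lower ones include miR-10b*, miR-129*, miR-149*, miR-425* and miR-30c-1*, which passed the filter only through the control shRNA cells with metformin. The miR-17* strand, called higher, passed only through these cells with vehicle, as did the guides miR-17, miR-106b and miR-425. Among the 8 passenger strands detected on all 12 arrays, 5 were called, all lower. Among the called strands the lowest values were those of miR-10b* (-2.17 ± 0.15), miR-135a* (-1.84 ± 0.21), miR-425* (-1.81 ± 0.24) and miR-129* (-1.78 ± 0.12), with adjusted p-values of 6.9e-07, 2.7e-05, 0.0001 and 6.9e-07, and miR-17* was the one higher (1.34 ± 0.36, adjusted p = 0.0068). The value of miR-135a* shrank to as little as -0.50, still called, under the alternatives run. For the strand pairs the interaction was called in 6 of the 9 hairpins, all lower, beside 47.1% of the 17 pairs. The largest was that of miR-21, -5.26 ± 0.50 (adjusted p = 1.6e-06), followed by let-7b at -4.95 ± 0.84 (adjusted p = 0.00023). For miR-17* and for the miR-17 and miR-106b pairs the knockdown change with metformin is 0.00 because all strands were at the floor there, so their interaction is the vehicle change with the sign turned. For the miR-425 pair the guide was at the floor with metformin, and the passenger rose above it on only 1 vehicle array. Since the interaction contains all 4 groups, it shares its arrays with the comparisons above.

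The remaining members gave no testable signal. Another 16 passenger strands were detected on 1 to 3 arrays, with scaled signals up to 9.15. On 3 arrays these were miR-125b-1*, miR-30c-2*, miR-335* and miR-454*, and on 2 arrays miR-130a*, miR-181a*, miR-1909* and miR-30a*. The 8 on 1 array were let-7e*, miR-130b*, miR-15a*, miR-182*, miR-27b*, miR-29c*, miR-629* and miR-99b*. The other 126 were detected on no array. Across the tested passenger strands with a known sequence and a signal in either group, GC content and change had a Pearson's r of 0.35 for knockdown with vehicle (17 strands) and 0.38 for knockdown with metformin (16 strands). For metformin it was -0.07 in control shRNA cells (19 strands) and -0.0 in Dicer shRNA cells (16 strands). Among the guides of these hairpins r was higher, 0.68 for knockdown with vehicle and 0.78 for metformin in control shRNA cells (8 guides each), and 0.92 for metformin in Dicer shRNA cells (6 guides). Spearman's rank correlations of these guides were lower, at 0.62, 0.71 and 0.77 in the same order. These points are few and share arrays and scaling, so the values are a description.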

How the data were processed

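Total RNA of 12 SUM159 samples was labelled with Cy3 for one-colour Agilent human microRNA arrays. The kit named in the label protocol is one for mRNA. The deposited total gene signal is an intensity on a linear scale with a detection flag, per the file headers. The submitters' processing notes name Agilent Feature Extraction 9.1. Names not detected hold 0.1. As an alternative served the log2 values deposited for 221 names (26 passenger strands), with column medians of 3.19 to 4.06 and an unknown normalization and centring.

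Signals were divided by the array's 75th percentile among the 98 human names that every array detected (factors 0.836 to 1.15), floored at 3.01 (the 5th percentile of detected signals) and taken to log2. Spread was pooled over 4 groups in limma 3.58.1 (R 4.3.3; 8 residual degrees of freedom), over 208 names and, for within-array strand differences, over 17 pairs. Adjusted p-values follow Benjamini-Hochberg. The fit was tested on simulated data. Every tested passenger strand is named; array values are given for those called or paired. The replicate numbers did not pair samples. The number of arrays limits the precision. The members and lists were chosen with earlier results of these data known; 8 names are not reported here. Alternatives were other scalings, an offset of 16, other detection filters, the series matrix, a replicate block and leaving out each array.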

Additional observations from a re-analysis of the deposited data

Results flagged for a closer look

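The knockdown change with metformin differed from that with vehicle, by limma's interaction test, for 12 of the 21 passenger strands, beside 76.4% of all names. Scaling to the viral names left 5 called higher and 3 lower. It turned the values of miR-150*, miR-1914*, miR-191* and miR-21* above 0 and lost the miR-129* call. The values that follow are those of the scaling used in the report. On the log2 scale the difference was -2.17 for miR-10b*, -1.78 for miR-129*, -1.84 for miR-135a*, -1.10 for miR-149*, -1.81 for miR-425*, -0.84 for miR-191* and 1.34 for miR-17*. It was -0.62 for miR-150* and for miR-1914*, -0.64 for miR-21*, -0.63 for miR-30c-1* and -1.35 for miR-625*. Leaving out 1 array at a time, the call was lost in 6 of 12 fits for miR-150* (adjusted p up to 0.076), in 8 for miR-21* (up to 0.094), in 9 for miR-625* (up to 0.077) and, for miR-1914*, only without replicate 1 of the Dicer shRNA cells with metformin (0.051). Metformin and slide cannot be told apart in these values.

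The within-array difference between passenger and guide gave the same kind of result for 6 of the 9 hairpins, beside 47.1% of the 17 pairs. It was -5.26 for miR-21, -4.95 for let-7b, -4.12 for miR-425, -3.36 for miR-106b, -2.69 for miR-23a and -1.87 for miR-17. For miR-106b and miR-17 both strands were at the floor on every metformin array, as was miR-17* itself above, so these values are the vehicle change with the sign turned and no measured response to knockdown under metformin. For miR-425 the guide was at the floor on every metformin array, and the passenger rose above it on only 1 vehicle array. Its value thus rests on the guide with vehicle and on the passenger with metformin. None of these 6 calls was lost under an alternative in which the pair could be tested.

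Signal also appeared on probes for viral passenger strands, although the labels name no virus beside the lentiviral vector. Of 16 viral names with an asterisk, 2 were detected on at least 1 array. The name kshv-miR-K12-12* was detected on all 12 arrays, with scaled signals of 9.86 ± 0.255 in control shRNA cells with vehicle, 12.7 ± 4.16 in Dicer shRNA cells with vehicle, 23.7 ± 2.98 in control shRNA cells with metformin and 9.18 ± 1.65 in Dicer shRNA cells with metformin (SD, n = 3). These lie within the range of many of the human passenger strands, such as miR-191* and let-7b*. What the viral probes measured was not tested.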

How the results depend on the processing

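Of 68 called changes of named passenger strands and pairs, 38 stayed called in the same direction under every alternative run. Another 11 were reversed, and with results not called 16 values reversed, all by scaling to the viral names, which moved the median of all names to -0.60 for knockdown with vehicle, 0.01 for knockdown with metformin, -1.16 for metformin in control shRNA cells, -0.19 for metformin in Dicer shRNA cells and 0.79 for the interaction. Under it, metformin in control shRNA cells gave -0.33 for let-7f-1*, -0.89 for miR-150*, -0.46 for miR-191*, -0.95 for miR-1914*, -0.85 for miR-21*, -1.04 for miR-32*, -1.17 for miR-877* and -1.21 for the miR-877 pair, the last through the floor. Knockdown with vehicle gave -0.41 for miR-150*, -0.11 for miR-191* and -0.37 for miR-1914*, and knockdown with metformin gave 0.31 for miR-150*. The interaction gave 0.73 for miR-150* and miR-1914*, 0.51 for miR-191* and 0.70 for miR-21*.

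Counts are given in the order knockdown with vehicle, knockdown with metformin, metformin in control shRNA cells, metformin in Dicer shRNA cells and interaction. For passenger strands they were 4, 8, 16, 2 and 12. With only names detected on all 12 arrays, which leaves 8 passenger strands, they were 2, 1, 7, 1 and 5. Quantile normalization gave 7 and scaling to the viral names 7 for the first, and the latter 4 for the second. For the fourth, no scaling, the 75th percentile over all human names (the same values, since it falls on names not detected), scaling to the viral names and names detected on at least 1 array gave 0. Quantile normalization gave 6, the offset 1 and the series matrix 8. Beside these counts of 0 by limma, 6 strands had an unadjusted p under 0.05 with the scaling used in the report. For pairs the counts were 6, 3, 7, 4 and 6. Names detected on all 12 arrays left 1 pair, called in each. Pairs with both strands detected on every array compared gave 2, 1, 1, 2 and 1, of as many tested. Names detected on at least 1 array gave 12, 7, 15, 8 and 12 of 19. Leaving out 1 array gave 3 to 5, 7 to 10, 14 to 18, 0 to 4 and 8 to 13 passenger strands and 5 to 7, 3 to 5, 7 to 9, 1 to 6 and 6 to 7 pairs. The pair count for knockdown with metformin was 5 without replicate 1 of the control shRNA cells with vehicle. That for metformin in Dicer shRNA cells was 1 without replicate 2 or 3 of the Dicer shRNA cells with vehicle or replicate 3 of those with metformin, and 2 without replicate 2 of the latter. Beyond the filters, the causes were not tested.

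Same-numbered replicates correlated at -0.18 to 0.32, and 14 of 36 best matches had the same number. The replicate block gave 4, 8, 16, 2 and 11 passenger strands and 6, 3, 7, 3 and 6 pairs. Dim strands are limited by signal over background: of the tested strands miR-106b* had the lowest median ratio of signal to its error, 3.92.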
